A study of Mus musculus with 5 samples.

Results

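Immunoglobulin transcripts were read across the livers of 5 inbred mouse strains. The members were all probe sets, the groups of short probes that read 1 transcript on the array, whose annotated symbols include a heavy, kappa or lambda chain segment or Jchain. They numbered 61 of the 45037 probe sets that were not manufacturer controls. Of these, 48 carried 1 symbol and 13 carried several. The symbol rule also took in 4 probe sets of Ighmbp2, a helicase gene that encodes no antibody chain, and these are kept apart below, which leaves 57 immunoglobulin probe sets. No member probe set carried a symbol of the delta, epsilon or remaining gamma constant regions, so these regions could not be read here.

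Each strain was represented by 1 array of liver RNA from FVB/NJ, C57BL/6J, BALB/CByJ, NZW/LacJ or RIIIS/J males. All were untreated, 10 weeks old and pooled as 3 animals per array, so animals within a pool cannot be told apart. The series followed up an expression locus by comparing strains. A strain thus rested on a single array, so differences could not be set against a spread between replicates, no p-value is given, and every difference describes these arrays alone. In whole liver RNA, fewer cells of a type and less RNA per cell cannot be told apart.

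An antibody is built from heavy chains and light chains of the kappa or lambda type, and each chain joins a variable region, joined at the DNA level from gene segments in the developing B cell, to a constant region. The heavy chain constant region sets the class: mu gives IgM, gamma gives IgG and alpha gives IgA. The J chain links IgM and IgA units into polymers. B cells and plasma cells make these transcripts, and hepatocytes, the main liver cells, do not. In mouse RefSeq the heavy chain genes lie on chromosome 12, kappa on chromosome 6, lambda on chromosome 16 and Jchain on chromosome 5.

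The promoter window of Jchain is shown because it was the one immunoglobulin member with an entry in the RefSeq promoter table, which matched 2 member symbols, Jchain and Ighmbp2. It spans 250 bases before to 50 after the gene start in GRCm38.p6, at chr5:88527848-88528147 on the minus strand. Capitals mark CACCTG, a form of the E-box read by basic helix-loop-helix factors, searched on both strands.
Jchain promoter: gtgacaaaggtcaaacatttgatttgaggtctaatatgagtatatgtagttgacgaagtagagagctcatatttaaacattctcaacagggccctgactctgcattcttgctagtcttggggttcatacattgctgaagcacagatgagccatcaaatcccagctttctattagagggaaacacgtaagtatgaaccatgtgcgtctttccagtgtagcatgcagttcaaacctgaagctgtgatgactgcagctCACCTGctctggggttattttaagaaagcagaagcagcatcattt
CACCTG stood in 20.2% of the 32851 promoters of the table. The octamer ATGCAAAT, known from immunoglobulin promoters, was not found in the Jchain window on either strand and stood in 1.74% of all promoters.

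The FVB/NJ array was set apart from the other 4 by its immunoglobulin signal. A probe set was called higher in a strain when its intensity was at least 2-fold above the nearest of the other strains, after values under a detection floor of 8.41 were raised to that floor. By this rule 23 of the 61 members (37.7%) were higher in FVB/NJ, against 2.97% of all probe sets. None of the 61 members was lower in FVB/NJ, where the share of all probe sets was 0.278%. C57BL/6J, BALB/CByJ and RIIIS/J had 0 members called higher and 0 called lower. The C57BL/6J array was at least 2-fold above the rest on 0.293% of all probe sets and below on 0.242%. For BALB/CByJ these shares were 0.429% above and 0.224% below, and for RIIIS/J 0.797% above and 0.897% below. NZW/LacJ had 0 higher (background 0.462%) and 2 lower (3.28%, against 0.413% of all probe sets), both for Ighm.

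Signal on many of these probe sets was close to that of unexpressed genes. Of the 61, 29 were under the floor on every array, 32 were above it on at least 1 and 15 on all 5. A further 13 were above it in FVB/NJ alone. By array, 31 members were above the floor in FVB/NJ, 18 in C57BL/6J, 17 in BALB/CByJ, 18 in NZW/LacJ and 18 in RIIIS/J. Over all probe sets the share above the floor was 50.8% in FVB/NJ, 51.5% in C57BL/6J, 49.7% in BALB/CByJ, 51.3% in NZW/LacJ and 51.2% in RIIIS/J, so the arrays differed little in how much they detected. Over the 32 members above the floor somewhere, the median of the FVB/NJ log2 value minus the mean of the others was 3.50, against -0.02 over the 25171 probe sets above the floor somewhere. That median rests in part on raised values, and on members that passed the floor only through FVB/NJ.

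The mu heavy chain, the chain of IgM and of the receptor on naive B cells, had the most probe sets among constant regions, and 6 of 11 were higher in FVB/NJ. Ighm on 1427351_s_at read 13878 in FVB/NJ, against 270.1 in C57BL/6J, 181 in BALB/CByJ, 10.1 in NZW/LacJ and 185 in RIIIS/J, 51.4-fold above the nearest. Ighm on 1427329_a_at read 11859 in FVB/NJ, against 178 in C57BL/6J, 174 in BALB/CByJ, 49.2 in NZW/LacJ and 177 in RIIIS/J, 66.6-fold above the nearest. Both probe sets put FVB/NJ far above the rest and NZW/LacJ at the bottom. Ighm on 1425247_a_at read 922 in FVB/NJ, against 6.41 to 8.68 in the others, 106-fold above BALB/CByJ, the nearest. On 1427756_x_at the FVB/NJ value was 282, against 9.68 to 11.5 in the others. On 1425324_x_at and 1427870_x_at it was 385 and 266, at least 45.8-fold and at least 31.6-fold higher, since the other 4 strains were under the floor. The 5 Ighm probe sets that were not called were under the floor in every strain, with FVB/NJ values of 4.67 to 6.12.

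The gamma 3 and alpha constant regions, of 1 IgG subclass and of the mucosal class IgA, were higher in FVB/NJ as well. Ighg3 on 1427503_at read 203 in FVB/NJ, against 40.1 in C57BL/6J, 37.3 in BALB/CByJ, 40.1 in NZW/LacJ and 39.4 in RIIIS/J. A second Ighg3 probe set, 1447998_at, read 51.7 in FVB/NJ, against 10.7 in C57BL/6J, 10.1 in BALB/CByJ, 10.7 in NZW/LacJ and 10.6 in RIIIS/J. With a stricter floor of 27.4, set at the 99th percentile, the FVB/NJ difference on 1447998_at was 0.92 on the log2 scale and the call ended. The differences at the main floor, 5.06-fold and 4.82-fold, were smaller than those of the called mu probe sets, and the other 4 strains were nearly level. The other 2 Ighg3 probe sets, 1426198_at and 1426199_x_at, were under the floor throughout.

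All 3 Igha probe sets were higher in FVB/NJ. Igha on 1421653_a_at read 416 in FVB/NJ, against 9.44 in C57BL/6J, 9.45 in BALB/CByJ, 8.89 in NZW/LacJ and 9.40 in RIIIS/J, 44.0-fold above the nearest. On 1429381_x_at it read 79.1 in FVB/NJ, against 9.13 to 9.54 in the others, 8.30-fold above the nearest. On 1425763_x_at it read 295 in FVB/NJ, at least 35.1-fold higher. Outside FVB/NJ the alpha signal was close to the floor or under it on all 3 probe sets.

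Of 5 probe sets that included a heavy chain variable segment, 1 was called. Ighv14-2 on 1455530_at read 1504 in FVB/NJ, against 9.51 in C57BL/6J, 9.03 in BALB/CByJ, 9.51 in NZW/LacJ and 9.12 in RIIIS/J. The gap was 158-fold at the main floor and at least 55.0-fold with the floor at the 99th percentile, since the other strains lay just above the main floor. The 3 probe sets annotated jointly to Ighv14-2, Ighg3 and Ighm did not follow it. On 1452538_at FVB/NJ had the lowest value, 8.27, against 9.30 to 9.48 in the others, and 1427758_x_at and 1451947_at were under the floor on all arrays. The probe set shared by Ighv1-72 and Ighm, 1427851_x_at, was under the floor too.

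Kappa, the light chain type of most mouse antibodies, was read by 3 probe sets annotated jointly to Igkc, Igkj1, Igkv6-23, Igkv4-53 and Igkv8-30. They share a target, so they are not independent readings. On 1427455_x_at the intensity was 14514 in FVB/NJ, against 113 in C57BL/6J, 235 in BALB/CByJ, 44.0 in NZW/LacJ and 56.8 in RIIIS/J. On 1452417_x_at it was 8166 in FVB/NJ, against 98.7 in C57BL/6J, 247 in BALB/CByJ, 50.04 in NZW/LacJ and 28.6 in RIIIS/J. On 1427660_x_at it was 8051 in FVB/NJ, against 85.7 in C57BL/6J, 239 in BALB/CByJ, 51.1 in NZW/LacJ and 39.7 in RIIIS/J. FVB/NJ was 61.7-fold, 33.1-fold and 33.7-fold above BALB/CByJ on the 3 probe sets, and BALB/CByJ was the nearest strain on each.

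Among the other 26 kappa probe sets, 5 were called higher in FVB/NJ and 15 were under the floor in every strain. Igkv8-30 on 1452463_x_at read 4063 in FVB/NJ, against 32.4 in C57BL/6J, 56.02 in BALB/CByJ, 32.4 in NZW/LacJ and 31.6 in RIIIS/J, 72.5-fold above the nearest. Igkv9-120 on 1460423_x_at read 973 in FVB/NJ, at least 116-fold higher, since the other 4 strains read 6.62 to 7.01. A pair of further Igkv9-120 probe sets, 1427750_at and 1452536_s_at, were under the floor in every strain, so probe sets of 1 segment did not move together. Igk, a symbol for the whole kappa locus, was at least 7.99-fold higher on 1452557_a_at (67.2 in FVB/NJ) and at least 2.15-fold higher on 1425738_at (18.1 in FVB/NJ). Igkv6-14 on 1427860_at read 35.5 in FVB/NJ, at least 4.22-fold higher.

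The 6 kappa probe sets above the floor and not called lay near it. Igkv4-72 read 17.2 in FVB/NJ, against 9.29 to 9.64 in the others, 1.79-fold above the nearest and the member just short of the threshold. The shared Igkv6-14 and Igkv6-23 probe set 1427799_x_at followed at 1.70-fold, with 15.3 in FVB/NJ against 7.81 to 8.97. On 1451965_at, shared by Igkv6-14, Igkv6-23 and Igkv8-19, FVB/NJ read 12.3, against 5.83 to 6.45 in the others. Igkv15-103 read 9.10 in FVB/NJ, against 6.44 to 6.71. Igkv5-39 read 8.61 in FVB/NJ, against 8.28 to 9.20 in the others, and was not higher. Of the called members, the one closest to the threshold was Igk on 1425738_at.

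The lambda light chain had 4 probe sets, all above the floor in FVB/NJ. Iglv1 on 1447918_x_at read 121 in FVB/NJ, against 6.69 to 6.89 in the others, at least 14.4-fold higher. The probe set shared by Iglc1 and Iglv1 read 75.0 in FVB/NJ, against 7.54 to 7.83 in the others, at least 8.91-fold higher. Iglv1 on 1427292_at (12.9 in FVB/NJ, against 6.94 to 8.08) and on 1430523_s_at (19.5 in FVB/NJ, against 14.4 to 14.7) were not called. Lambda signal in the other 4 strains was thus under the floor on 3 of the 4 probe sets and level on the remaining one.

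Jchain read 1747 in FVB/NJ, against 10.0 in C57BL/6J, 30.8 in BALB/CByJ, 15.3 in NZW/LacJ and 15.1 in RIIIS/J. It was 56.8-fold above BALB/CByJ, the nearest strain, and 175-fold above C57BL/6J, the lowest. The helicase gene Ighmbp2 was under the floor on all 4 of its probe sets, with FVB/NJ values of 4.26 to 5.82 and values of 4.36 to 5.98 in the other strains.

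The chains did not rank the other 4 strains in the same way. With the FVB/NJ array left out, 4 of the 61 members (6.56%) were at least 2-fold higher in BALB/CByJ than in the nearest of the other 3, against 0.597% of all probe sets. They were the 3 shared Igkc probe sets (2.09-fold, 2.50-fold and 2.79-fold above C57BL/6J) and Jchain (2.01-fold above NZW/LacJ). Jchain sat at the threshold: its difference was 1.00 on the log2 scale, 0.97 after quantile normalisation, 0.87 with each array centred on its median and 0.17 with the floor at 27.4, each of which ends the call. BALB/CByJ was also highest of the 4 on Igkv8-30, 1.73-fold above C57BL/6J. It was not highest for Ighm, at 174 on 1427329_a_at against 178 in C57BL/6J and 177 in RIIIS/J, and at 181 on 1427351_s_at against 270.1 in C57BL/6J and 185 in RIIIS/J.

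NZW/LacJ was called lower for Ighm alone. It was 17.8-fold below the nearest strain on 1427351_s_at and 3.54-fold below on 1427329_a_at (at least 6.60-fold and 3.54-fold with the floor at 27.4), so the 2 probe sets gave the same direction and very different sizes. On Ighm 1427756_x_at NZW/LacJ was not lowest, at 10.4, against 10.4 in C57BL/6J, 9.68 in BALB/CByJ and 11.5 in RIIIS/J. On Ighm 1425247_a_at it was under the floor, as were C57BL/6J and RIIIS/J. The background for lower calls in NZW/LacJ with FVB/NJ left out was 0.508%. On the 3 shared Igkc probe sets NZW/LacJ read 44.0 to 51.1 and RIIIS/J read 28.6 to 56.8, and their order changed with the probe set. RIIIS/J had the lowest shared kappa signal on 2 of 3 probe sets. Its Ighm value was level with C57BL/6J on 1427329_a_at and below it on 1427351_s_at (185 in RIIIS/J, against 270.1 in C57BL/6J).

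The called members shared more than the symbol rule. Probe sets whose names end in _x_at, _s_at or _a_at can read several related transcripts, and 17 of the 28 such members were higher in FVB/NJ (60.7%), against 4.06% of all probe sets of that kind. Of the 33 members with other names 6 were higher (18.2%), against 2.7% of all such probe sets. These 6 were Ighv14-2, Jchain, both called Ighg3 probe sets, Igkv6-14 and 1 for Igk. With the floor at the 99th percentile 3 of them were no longer called, Ighg3 on 1447998_at (0.92 on the log2 scale), Igkv6-14 (0.38) and Igk (every strain under that floor). Cross-reading among related segments was not tested, so a value is given to a probe set and not to 1 rearranged gene. Ranked by the FVB/NJ gap over all probe sets, members held 3 of the first 10 places, 10 of the first 50 and 15 of the first 100.

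Genes that mark B cells were higher on the same array as the antibody genes. Of 25 measured B cell genes 22 were higher in FVB/NJ and 0 lower, where 3.79% of all 18193 genes were higher and 0.352% lower. The median FVB/NJ log2 value minus the mean of the others was 4.31 in this list, against 0 over all genes, and the summed intensity was 10192 in FVB/NJ, against 277 to 332 in the others. Tnfrsf13c, the receptor for the B cell survival factor BAFF, read 808 in FVB/NJ, against 10.7 to 15.2. Ms4a1, the CD20 surface antigen, read 1100 in FVB/NJ and exceeded the nearest strain 67.3-fold. Pou2af1, a coactivator at octamer sites, was at least 59.7-fold higher, and the antigen receptor partners Cd79b and Cd79a 112-fold and at least 107-fold. Pax5, a B cell identity factor, was under the floor in every strain (5.78 in FVB/NJ), as was Vpreb3.

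Genes of plasma cells and antibody secretion, many of which every secreting cell uses, were mostly level. Of 19 measured genes 3 were higher in FVB/NJ (15.8%) and 1 lower, where 3.79% of all genes were higher and 0.352% lower. The median was 0.03, and summed intensities were 43250 in FVB/NJ, against 39531 to 46464 in the others. The higher ones were Tnfrsf13b, a receptor of B cells and plasma cells (239 in FVB/NJ, at least 28.4-fold), Mzb1, a chaperone of IgM assembly (140 in FVB/NJ, at least 16.6-fold), and Irf4, a plasma cell factor (66.5 in FVB/NJ, at least 7.90-fold). Fkbp11 was lower, at 61.8 in FVB/NJ against 136 to 385. The plasma cell genes Prdm1, Tnfrsf17 and Slamf7 were under the floor on all arrays. Sdc1 and Xbp1, which hepatocytes also express, read 5351 and 6886 in FVB/NJ, against 5474 to 8748 and 5802 to 8309 in the others.

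Among genes for making and altering immunoglobulin DNA, 9 of 15 measured recombination and pre-B cell genes and 8 of 14 measured germinal centre and class switching genes were above the floor on at least 1 array. The lymphocyte recombination genes Rag1, Rag2 and Dntt and the surrogate light chain genes Vpreb1 and Igll1 were under the floor in every strain. DNA repair genes that other cells also use were detected, Xrcc6 at 152 in FVB/NJ against 144 to 196. Of the 15 recombination and pre-B cell genes Il7r alone was higher in FVB/NJ, at 20.9 against 6.03 to 6.34. That was 6.67% of the list, against 3.79% of all genes. Of the 14 germinal centre and class switching genes 0 were higher and 0 lower in FVB/NJ, and 6 were under the floor throughout. The shares over all genes were 3.79% higher and 0.352% lower. Bcl6, a repressor that germinal centre B cells need and hepatocytes also use, read 523 in FVB/NJ, against 317 to 1009.

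Of 16 measured genes whose products bind or carry finished antibody, 1 was higher in FVB/NJ (6.25%) and 0 lower. Over all genes 3.79% were higher and 0.352% lower, so this list stood near those shares. The higher gene was Fcmr, the IgM receptor of B cells, at 280.3 and at least 33.3-fold. Pigr, which carries polymeric IgA into bile, read 12292 in FVB/NJ, against 9834 to 13133. Fcgrt, the neonatal receptor that protects IgG from breakdown, read 1424 in FVB/NJ, against 971 to 1512, and Fcgr2b, the inhibitory IgG receptor, read 886 in FVB/NJ, against 535 to 798. The complement genes C1qa, C1qb and C1qc, whose product binds antibody in immune complexes, had their highest value in FVB/NJ without reaching the threshold. C1qa read 737 in FVB/NJ, against 195 to 442, C1qb 1248 against 516 to 959, and C1qc 285 against 83.5 to 204.

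Markers of other blood, spleen and lymph node cells were also higher there. Higher in FVB/NJ were 7 of 14 T cell genes (50%) and 7 of 12 genes of spleen and lymphoid stroma or macrophages (58.3%). So were 4 of 10 erythroid (40%), 3 of 10 neutrophil (30%) and 3 of 12 Kupffer cell genes (25%), and 0 of any of these lists were lower. Over all genes 3.79% were higher in FVB/NJ and 0.352% lower. Marco and Timd4 are on both the stroma or macrophage list and the Kupffer cell list, so 2 of the 3 Kupffer cell genes are among the 7. Summed intensities were 660 in FVB/NJ against 154 to 233 for T cells, 638 against 59.6 to 98.1 for neutrophils and 5431 against 1986 to 4410 for erythroid genes. For the stroma list the sum was 52393 in FVB/NJ, against 38485 to 53054, and Clu, also made by hepatocytes, gave most of it. Cxcl13, the chemokine that draws B cells into follicles, read 515 in FVB/NJ, against 9.57 to 22.2, and Ltb, a lymphotoxin of lymphoid tissue, read 253 against 9.11 to 9.58. Of the same list, Vcam1 read 1795 in FVB/NJ, against 18.3 to 169, and Mfge8 read 801 against 32.3 to 91.7. Spic read 42.5 in FVB/NJ, against 17.5 to 19.9, 2.13-fold above the nearest. Cd3d, part of the T cell receptor complex, read 165 in FVB/NJ, at least 19.7-fold higher. Cd3e of the same complex was not called, at 11.6 in FVB/NJ against 9.54 to 9.89. Cd4 read 8.21 in FVB/NJ, against 8.82 to 9.74, and Cd8a 14.1 against 14.1 to 14.2. Slc4a1, the red cell anion exchanger, read 1096 in FVB/NJ and exceeded the nearest strain 82.3-fold. Alas2, also erythroid, read 2861 in FVB/NJ, against 1032 to 3444, and Epb42, Sptb and Hba-a1 were under the floor in every strain. S100a9, a neutrophil protein, was 11.7-fold higher, while the granule genes Mpo and Elane were under the floor in every strain. While 7 of the 12 stroma or macrophage genes were higher in FVB/NJ, 4 of the 12, Madcam1, Nkx2-5, Tlx1 and Siglec1, were under the floor in every strain. The part of these cells in the immunoglobulin signal was not tested.

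Hepatocyte genes were closer across arrays, while the ratios of the RNA controls were highest in FVB/NJ. Of 11 hepatocyte genes 0 were called in FVB/NJ, where 3.79% of all genes were higher and 0.352% lower. Alb, serum albumin, read 64743 in FVB/NJ, against 63745 to 74714 in the others. Apob varied more, at 16062 in FVB/NJ against 13752 to 41565. The Kupffer cell list summed to 8830 in FVB/NJ, against 4275 to 9856. The ratio of 3' to 5' signal for actin was 4.98 in FVB/NJ, against 2.76 to 3.93, and for Gapdh 1.01 against 0.901 to 0.993, and its part in the result was not tested. In RIIIS/J 11 of 11 exocrine pancreas genes were higher (background 0.632%) and a sum of 71379, against 747 to 1325 in the others. No immunoglobulin probe set was called in RIIIS/J.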

How the data were processed

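Liver RNA of 5 strains was hybridised to 1 array each. The submitters' processing notes name GCOS and GCRMA without saying which step each did, and the values the authors deposited are intensities on a linear scale. Program versions and settings are not given in the sources used here. Symbols came from the platform annotation, in which 34958 probe sets had 1 gene, 932 several and 9211 none, and 29 of 30 member symbols matched the RefSeq gene table. The 64 control probe sets were left out. The floor was the 95th percentile over 86 probe sets of chemosensory receptors (smell, pheromone and taste). Values under it were raised to it, so such folds are bounds ("at least"). Each listed gene took its 1-gene probe set with the highest mean. Equal values on 2 or more arrays occurred in 20 of 61 members (32.8%) and in 29.1% of all probe sets.

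Members, lists and tests were chosen with earlier results of these data known. Named were constant region, lambda and Jchain probe sets, the variable ones with the largest gaps or, if uncalled, the highest means, up to 5 called genes per list by gap, and defining markers at the floor. For the stroma or macrophage list all 7 called genes were named. Level genes were named after their values were seen. The calls were tested on simulated data. Alternatives were the floor, scaling, threshold, probe set choice and leaving out arrays. The number of arrays limits precision. Python 3.11.15, numpy 2.4.6 and pandas 2.3.3 were used.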

Additional observations from a re-analysis of the deposited data

How the results depend on the processing

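The results were recomputed under 14 alternatives. The FVB/NJ count of 23 higher members was 19 to 23 under 12 of the 13 alternatives that keep its array, and 6 (of 33) with specific probe set names alone, which tests fewer probe sets. Of the recomputed counts and medians 26 moved and 328 stayed within 1.5 times, or within 0.585 on the log2 scale. The FVB/NJ median of 3.50 was 4.14 with each array centred, 4.30 with 1-symbol probe sets and 0.87 with specific names, where the medians of C57BL/6J and NZW/LacJ were -0.18 and -0.21, against -0.77 and -0.88. Without FVB/NJ the medians were 0.037 in C57BL/6J, -0.0092 in BALB/CByJ, -0.014 in NZW/LacJ and -0.0092 in RIIIS/J, and BALB/CByJ had 4 higher members in place of 0. Against the median of the others, BALB/CByJ had 4 higher members, and C57BL/6J had 1, NZW/LacJ 5 and RIIIS/J 3 lower ones. NZW/LacJ had 1 lower member at the 4-fold threshold and 0 with specific names, and RIIIS/J had 2 without NZW/LacJ. In FVB/NJ, higher T cell genes fell to 3 with the floor at the 99th percentile (27.4), and higher erythroid genes to 2 at 4-fold. The recombination list had 0 under that floor or at 4-fold, and 2 against the median of the others or without C57BL/6J. Antibody receptor genes numbered 3 against that median and 2 without C57BL/6J. Of single probe set differences 35 moved, 21 of them with the floor at the 99th percentile, where FVB/NJ stood at least 15.2-fold above the others on Igha 1421653_a_at and at least 33.7-fold on Ighm 1425247_a_at. Where no construction is named, the cause was not tested. Centring moved the arrays by -0.09 to 0.12 on the log2 scale.

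No paired analysis was possible because the arrays carry no replicate numbers, with a single pool behind each strain. Signal near the floor limits most variable segment probe sets, and intensities carry no counting depth.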
